A study of Mus musculus with 23 samples.

Results

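Esrp1, Esrp2, Rbm47, Rbfox2, Qk, Mbnl1, Celf2 and Ptbp1 encode RNA-binding proteins that steer alternative splicing in epithelial and mesenchymal cells. These 8 genes were chosen by name, their symbols were matched to the Ensembl identifiers of the deposited table, and all 8 were found among its 54347 genes. Their levels were followed through 23 RNA sequencing libraries made from cells of the labial cervical loop, the epithelial fold at the growing end of the mouse lower incisor. Every library came from Sox2-GFP mice at postnatal day 2, in which the endogenous Sox2 promoter drives green fluorescent protein, and the dissociated cells were separated by fluorescence into a Sox2-positive and a Sox2-negative population. The 4 groups were the Sox2-negative and Sox2-positive cells of batch A, with 6 libraries each, and the same populations of batch B, with 4 Sox2-negative and 7 Sox2-positive libraries, where a batch is 1 day of work with its own mice, so that day and mice cannot be told apart. The labels call the Sox2-positive cells dental epithelial stem cells and do not say which cells the Sox2-negative population holds, nor whether libraries within a batch share mice, so p-values measure only the spread between libraries.

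As background, splicing regulators bind short sequence elements in a transcript and favour or block the use of nearby exons, and their levels differ between cell types. Esrp1 and Esrp2 are restricted to epithelia, where they promote the epithelial exon of Fgfr2 and the epithelial isoforms of Cd44, Ctnnd1 and Enah. Rbm47 is also best known from epithelia, and the proteins of Rbfox2, Qk and Mbnl1 promote many isoforms found in mesenchymal cells. Celf2 is best known from brain, muscle and T cells, and Ptbp1 is a near-ubiquitous repressor of exons that is switched off in neurons. In teeth, the epithelial form of the Fgfr2 receptor reads growth factors that the neighbouring mesenchyme sends, and the mouse incisor depends on it to keep growing.

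Celf2, best known from tissues other than epithelia, was higher in Sox2-positive cells of both batches. Rbm47, best known from epithelia, was lower there in batch A and not called in batch B. For both genes, sequence before a listed start is shown. Each line holds the 250 bases before the most upstream start listed by RefSeq in GRCm38.p6, written in the direction of transcription (both genes lie on the minus strand). Celf2 has 5 listed starts and the window is chr2:7396199-7396448, with 45.6% G and C. Rbm47 has 3 listed starts and the window is chr5:66151955-66152204, with 41.6% G and C. Both windows lie inside the genes as annotated here, whose first bases are at chr2:7509563 and chr5:66173118. The bases before those positions were not searched.
Celf2: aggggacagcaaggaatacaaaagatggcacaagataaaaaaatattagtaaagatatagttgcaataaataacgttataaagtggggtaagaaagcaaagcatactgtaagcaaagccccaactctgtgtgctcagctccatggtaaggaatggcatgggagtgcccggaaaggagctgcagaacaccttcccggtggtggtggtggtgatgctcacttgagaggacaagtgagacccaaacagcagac
Rbm47: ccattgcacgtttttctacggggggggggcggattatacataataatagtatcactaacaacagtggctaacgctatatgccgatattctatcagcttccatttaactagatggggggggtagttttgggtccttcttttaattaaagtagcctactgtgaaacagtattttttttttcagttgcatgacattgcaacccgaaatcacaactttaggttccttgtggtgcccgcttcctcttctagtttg
All letters are in lower case because none of the motifs searched was present. The motifs, searched on both strands, were the grainyhead element AACCNGTT, the E-box CAGGTG that SNAI and ZEB factors bind, and the SOX element AACAAT. They are held by 1.79%, 17.2% and 9.42% of the 32851 windows of the same length in the promoter table. RefSeq entries were matched for 5 of the 8 genes (Celf2, Rbm47, Qk, Mbnl1 and Ptbp1), and none of the 5 windows held a match, which says only that these letters are not in these windows.

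Total estimated counts ran from 3711793 to 4831091 (Sox2-negative) and from 3927892 to 5936044 (Sox2-positive) in batch A, and from 6397409 to 9541443 and from 2305778 to 7111502 in batch B. Levels are given as CPM, the count of a gene relative to the TMM-scaled total of its library, and 3 counts, the limit that a count of 0 allows, correspond to 0.314 to 1.3 CPM over the libraries (counting error only). Sox2 itself lay at 0 to 1.19 CPM in the 10 Sox2-negative libraries and at 2.55 to 20.4 CPM in the 13 Sox2-positive libraries. All 8 epithelial markers were higher and all 8 mesenchymal, 8 leukocyte and 6 endothelial markers were lower in Sox2-positive cells in each batch. Ameloblast markers went against the epithelial ones, with higher sums in Sox2-negative libraries. These were 747 to 939.7 against 289 to 349 CPM in batch A, and 593 to 712 against 6.82 to 10.1 CPM in batch B. The summed epithelial markers reached 3780.0 to 4188 CPM in batch A and 3963 to 6049 CPM in batch B Sox2-positive libraries, against 163 to 259 and 377 to 441 CPM in the Sox2-negative libraries. Libraries 1 and 2 of batch B stood apart from the others of that batch (epithelial sums of 4188 and 3963 CPM against 5716 to 6049 CPM among Sox2-positive libraries), so results are also given without them where that matters. Among Sox2-negative libraries their epithelial sums (415 and 420.3 CPM) did not stand apart. Their mesenchymal sums were 8603 and 8153 CPM, against 10645 and 11098 CPM. Leaving them out removes both from each population, so those fits rest on fewer libraries.

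Over both batches, Esrp1, Esrp2, Celf2 and Ptbp1 were higher in Sox2-positive cells, and Rbm47, Rbfox2, Qk and Mbnl1 were lower. The epithelial pair differed most, with log2 fold changes of 3.10 for Esrp1 and 4.14 for Esrp2. Mbnl1, Rbfox2 and Qk, which promote mesenchymal isoforms, were lower by smaller amounts. Celf2, best known outside epithelia, was higher in the population rich in epithelial markers, and Rbm47, best known from epithelia, was lower there in batch A. These calls come from edgeR's quasi-likelihood test with batch as a covariate and a Benjamini-Hochberg adjusted p under 0.05. Of the 17190 genes tested, 24.9% were called higher and 32.5% lower, so a call by itself does not set these genes apart, and their median log2 fold change of -0.03 lay beside -0.12 for all genes. Total-count scaling in place of TMM moved that median of all genes to 0.00. In batch A alone 4 regulators were called higher and 3 lower, among 14296 genes of which 19.3% were higher and 24.2% lower. In batch B alone 4 were higher and 2 lower, among 15765 genes of which 27.1% were higher and 27.6% lower.

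**Figure D1:**
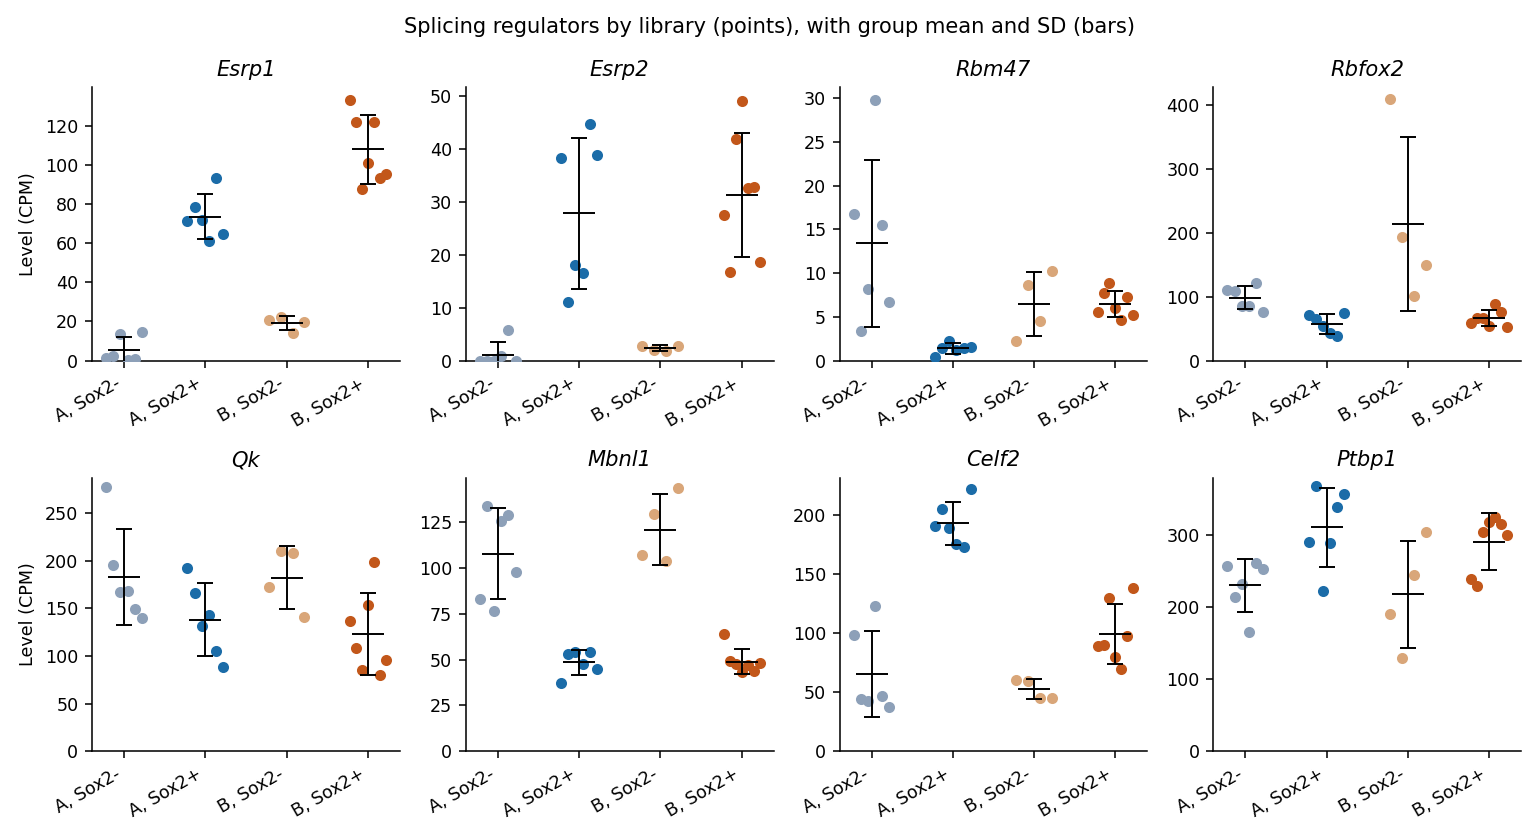
Level of each splicing regulator in CPM (linear axis) by group, with 1 point per library and bars for the mean and SD of each group (n = 6, 6, 4 and 7). Esrp1, Esrp2 and Mbnl1 separate the populations over both batches with no overlap, while Qk and Ptbp1 overlap in both batches and Rbm47 overlaps in batch B.

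Esrp1 (ENSMUSG00000040728.15, mm10 chr4:11331933-11386783, minus strand), the better studied of the epithelial splicing regulatory proteins, was present in every library. In batch A Sox2-negative cells the lowest, median and highest libraries held 0.523, 1.93 and 14.5 CPM, and in batch A Sox2-positive cells 61.2, 71.4 and 93.4 CPM. Batch B Sox2-negative libraries held 20.8, 22.2, 14.0 and 19.5 CPM, and the Sox2-positive libraries ran from 87.7 over a median of 101 to 133 CPM. No Sox2-negative library reached the lowest Sox2-positive one, and the mean was 13.2 times as high in Sox2-positive cells in batch A and 5.63 times as high in batch B. Esrp1 gave a log2 fold change of 3.10 over both batches (SE 0.37, edgeR adjusted p 6.05e-08), of 3.73 in batch A (SE 0.65, 0.000241) and of 2.56 in batch B (SE 0.18, 7.29e-09). Within batch A Sox2-negative cells the libraries fell into a high pair and a low set: replicates 3 and 6 held 13.7 and 14.5 CPM, and the other 4 held 0.523 to 2.56 CPM. The summed epithelial markers of that pair were 192 and 223 CPM, inside the 163 to 259 CPM of the group.

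Esrp2 (ENSMUSG00000084128.10, chr8:106130319-106136974, minus strand), which shares most targets with Esrp1, showed the largest fold change of the 8 genes at lower levels. In batch A Sox2-negative cells 4 of 6 libraries had no count, and the other 2 held 0.785 and 5.88 CPM. Batch A Sox2-positive libraries ran from 11.1 over a median of 28.2 to 44.7 CPM. Among batch B libraries, the Sox2-negative ones held 2.85, 1.95, 1.79 and 2.72 CPM, and the Sox2-positive libraries ran from 16.7 over 32.6 to 49.2 CPM. The populations did not overlap in either batch, and within both Sox2-positive groups the highest library was several times the lowest. The log2 fold change was 4.14 over both batches (SE 0.56, edgeR adjusted p 4.95e-07), 4.57 in batch A (SE 1.02, adjusted p 0.0018) and 3.81 in batch B (SE 0.37, adjusted p 3.9e-07). The batch A value rests in part on Sox2-negative replicate 5, the library with 5.88 CPM, and was 7.29 without it (adjusted p 1.17e-05). The only Esrp2 counts then left in that group were 3 in replicate 4, so the size of the 7.29 is uncertain. Esrp2 shares 219 exonic bases with Nfatc3 on the other strand, a gene that reached 68.1 CPM, and no strand setting of the counting is given in the sources used here, so a part of the Esrp2 counts is uncertain.

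Rbm47 (ENSMUSG00000070780.11, chr5:66016549-66173118, minus strand) encodes an RNA-binding protein best known from epithelia, and it was the regulator whose pattern depended on batch. In batch A the Sox2-negative libraries ran from 3.42 over a median of 11.9 to 29.8 CPM. The Sox2-positive libraries of that batch ran from 0.443 over 1.42 to 2.26 CPM, which is 2 to 12 counts a library. The 4 Sox2-negative libraries of batch B held 2.26, 8.70, 4.57 and 10.2 CPM, and the Sox2-positive libraries ran from 4.66 over 6.06 to 8.90 CPM. Thus the populations did not overlap in batch A, where the Sox2-negative mean was 9.67 times the Sox2-positive mean, whereas in batch B the Sox2-positive range lay inside the Sox2-negative one and the ratio was 0.992. Rbm47 shares 276 exonic bases with Gm43323 on the same strand, which held at most 4.36 CPM, so reads of that stretch are uncertain. The log2 fold change was -3.23 in batch A (SE 0.62, edgeR adjusted p 0.000573) and 0.10 in batch B (SE 0.43, adjusted p 0.865).

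The difference between these Rbm47 values, batch B minus batch A, was 3.26 (SE 0.76, edgeR interaction adjusted p 0.00759). It was the only one of the 8 genes called for the interaction, at a background of 7.04% of 17190 genes. Without libraries 1 and 2 of batch B the Rbm47 interaction was 3.04 with an adjusted p of 0.107. The pooled value of -1.84 (SE 0.56, adjusted p 0.00618) averages over unlike batches, and with limma-voom and quality weights it was -0.54 with an adjusted p of 0.274. Inside Sox2-positive cells, Rbm47 was higher in batch B than in batch A by 2.20 log2 (SE 0.51, adjusted p 0.00439), and this call held under all 31 alternative settings (2.04 to 2.40, highest adjusted p 0.021). All 8 leukocyte markers moved with Rbm47 in batch A, with sums of 1197 to 1411 CPM in Sox2-negative and 7.31 to 14.5 CPM in Sox2-positive libraries (Itgam at 0 in the latter). In batch B the sums were 259 to 319.8 CPM against 7.89 to 11.7 CPM, with Tyrobp and Csf1r at 0 in Sox2-positive cells. Leukocyte markers were not alone in moving with Rbm47 in batch A. All 8 mesenchymal, all 6 endothelial and the 4 erythroid markers tested were also lower in Sox2-positive cells of that batch. All 8 epithelial and 5 of 6 glial markers were higher there. The Sox2-negative library with the highest Rbm47 level, batch A replicate 4, had the lowest leukocyte sum of its group (1197 CPM), and the part of other cell types in the Rbm47 difference was not tested. In such bulk samples, fewer cells of a type and less RNA per cell cannot be told apart.

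**Figure D2:**
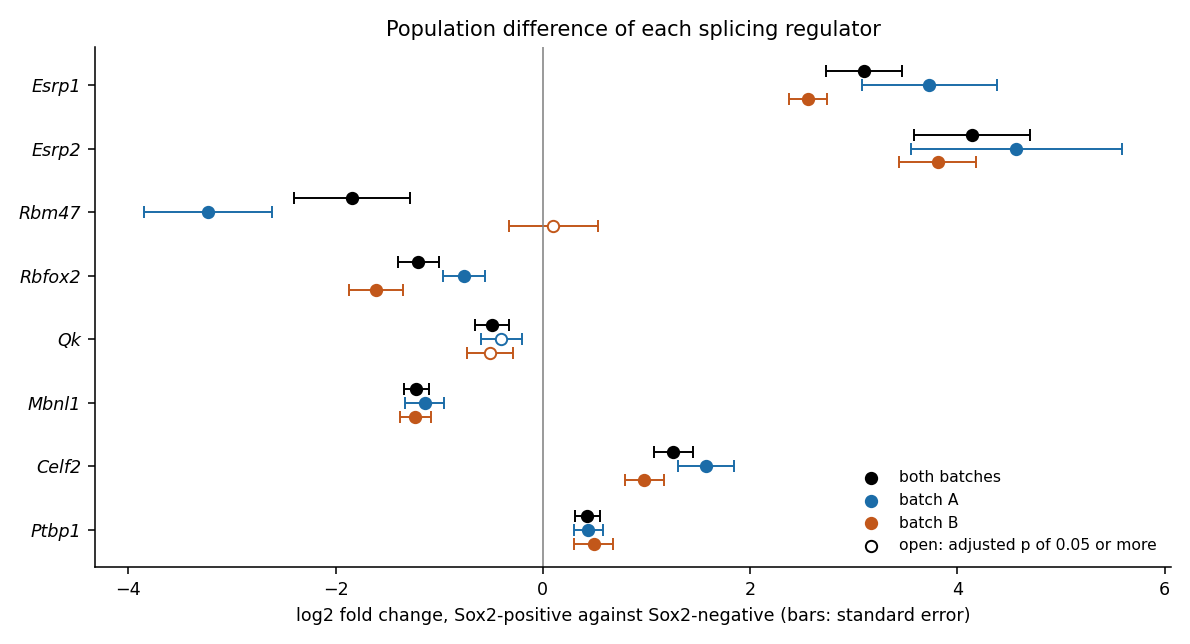
Log2 fold change of each regulator in Sox2-positive against Sox2-negative cells, over both batches (black), in batch A (blue) and in batch B (orange), with bars for the standard error and open points for an adjusted p of 0.05 or more. Rbm47, the regulator called for the interaction, lies at -3.23 and 0.10 in the batches, and Mbnl1 at -1.14 and -1.23.

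Mbnl1 (ENSMUSG00000027763.13, chr3:60472830-60629750, plus strand), a muscleblind-like protein that favours isoforms of differentiated and mesenchymal cells, was lower in Sox2-positive cells of both batches. Batch A Sox2-negative libraries ran from 76.7 over a median of 112 to 134 CPM, and Sox2-positive libraries from 37.4 over 50.4 to 54.4 CPM. Batch B Sox2-negative libraries held 107, 129.6, 104 and 144 CPM, and the Sox2-positive libraries ran from 43.1 over 47.5 to 64.2 CPM. Every Sox2-negative library of either batch lay above every Sox2-positive one. The edgeR fit put Mbnl1 at a log2 fold change of -1.22 over both batches (SE 0.12, edgeR adjusted p 1.6e-09), with -1.14 (adjusted p 0.000121) when only batch A was fitted and -1.23 (adjusted p 3.16e-06) when only batch B was. Over 32 alternative settings it lay between -1.27 and -1.10.

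Rbfox2 (ENSMUSG00000033565.18, chr15:77078990-77307004, minus strand), which promotes mesenchymal isoforms of many transcripts, was lower in Sox2-positive cells of each batch. Batch A Sox2-negative libraries ran from 75.5 over 97.6 to 121 CPM, and Sox2-positive libraries from 37.8 over 59.9 to 74.6 CPM, so the ranges only just failed to meet. Among batch B libraries, the Sox2-negative ones held 409, 193, 101 and 150.0 CPM, and the Sox2-positive libraries ran from 52.7 over 66.5 to 87.9 CPM. The spread in that Sox2-negative group, 213 ± 136 CPM (SD, n = 4), was set by replicate 1 at 409 CPM. The log2 fold change was -1.20 over both batches (SE 0.20, edgeR adjusted p 8.27e-06), -0.76 in batch A (SE 0.20, adjusted p 0.00633) and -1.61 in batch B (SE 0.26, adjusted p 8.48e-05). Without libraries 1 and 2 of batch B it was -0.75 over both batches and -0.86 in batch B, still called. The batches were not shown to differ in this change (interaction -0.93, SE 0.35, adjusted p 0.122).

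Qk (ENSMUSG00000062078.15, chr17:10202601-10319854, minus strand) encodes the quaking protein, which controls splicing in glia and in cells that lose epithelial character, and its difference was small. Batch A Sox2-negative libraries ran from 139.7 over 167 to 277 CPM, and Sox2-positive libraries from 88.4 over 137 to 192 CPM. The 4 Sox2-negative libraries of batch B held 172, 210.2, 208 and 141 CPM, and the Sox2-positive libraries ran from 80.1 over 108 to 199 CPM. The populations overlapped in both batches. The log2 fold change was -0.49 over both batches (SE 0.16, edgeR adjusted p 0.0106), -0.40 in batch A (SE 0.20, adjusted p 0.12) and -0.51 in batch B (SE 0.22, adjusted p 0.0588). The pooled call was lost with total-count scaling (-0.37, adjusted p 0.0527) and without libraries 1 and 2 of batch B (-0.39, adjusted p 0.0828). In batch B alone Qk was called lower in 8 of 20 alternative settings, with RLE scaling (adjusted p 0.0364), no filter beyond 1 count (0.0216), thinning (0.0289), limma-voom (0.0336) and DESeq2 (0.0258), and without any 1 of Sox2-negative replicate 4 and Sox2-positive replicates 4 and 5 (lowest adjusted p 0.00891).

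Celf2 (ENSMUSG00000002107.18, chr2:6539694-7509563, minus strand) encodes a splicing and RNA-stability factor best known from brain, muscle and T cells. Batch A Sox2-negative libraries ran from 37.3 over 45.5 to 123 CPM, and Sox2-positive libraries from 173 over 190.0 to 222 CPM. Batch B Sox2-negative libraries held 60.6, 59.4, 45.5 and 45.4 CPM, and the Sox2-positive libraries ran from 70.0 over 90.1 to 138 CPM. The populations did not overlap within a batch. Pooled over batches they did, because batch A Sox2-negative replicates 1 and 4 held 98.7 and 123 CPM, within the range of batch B Sox2-positive libraries. In log2 terms the difference was 1.26 over both batches (SE 0.19, edgeR adjusted p 2.79e-06), 1.57 in batch A (SE 0.27, adjusted p 0.000202) and 0.98 in batch B (SE 0.19, adjusted p 0.000456). It was called under every alternative setting run for these 3 comparisons. The interaction was not called (-0.65, SE 0.35, adjusted p 0.313). Celf2 shares 1961 exonic bases with Gm26565 on the other strand, a gene absent from the deposited counts, so the Celf2 level is uncertain to that extent.

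Sox2-positive cells of batch B held less Celf2 than those of batch A, by -0.96 log2 (SE 0.23, edgeR adjusted p 0.00534; -1.05 to -0.89 over 31 alternative settings, highest adjusted p 0.0407). Glial markers had the same group order in Sox2-positive cells: 5 of 6 were higher in Sox2-positive than in Sox2-negative cells of batch A (all but S100b), and their sums were 774 to 982 CPM in batch A Sox2-positive libraries and 37.8 to 72.2 CPM in batch B Sox2-positive libraries. In Sox2-negative libraries the glial sums were 24.2 to 59.0 CPM in batch A and 34.5 to 51.1 CPM in batch B, with Foxd3 at 0 in both groups and Sox10 at 0 in the latter. Muscle markers went the other way, with 182 to 337 CPM in batch B Sox2-positive libraries (5 of 6 higher there than in Sox2-negative cells), and 0.443 to 11.1 CPM in batch A Sox2-positive libraries, where Myod1 was at 0. In batch B the glial sums of the populations overlapped, while 4 of the 5 glial markers tested there were higher in Sox2-positive cells. From batch A to batch B Sox2-positive libraries, the sums also went from 138 to 195 down to 25.9 to 53.8 CPM for neuronal markers (Snap25 at 0 in batch A, Elavl3 in batch B). Tubb3 made up most of these neuronal sums, with means of 154 and 39.3 CPM. Of the 4 neuronal markers tested between these groups, 1 was called lower and 3 were not called, beside 10.4% of all genes called. Ameloblast sums went from 289 to 349 down to 6.82 to 10.1 CPM, and mesenchymal sums from 775 to 1224 down to 191 to 247 CPM. The part of any of these cells in the Celf2 levels was not tested.

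**Figure D3:**
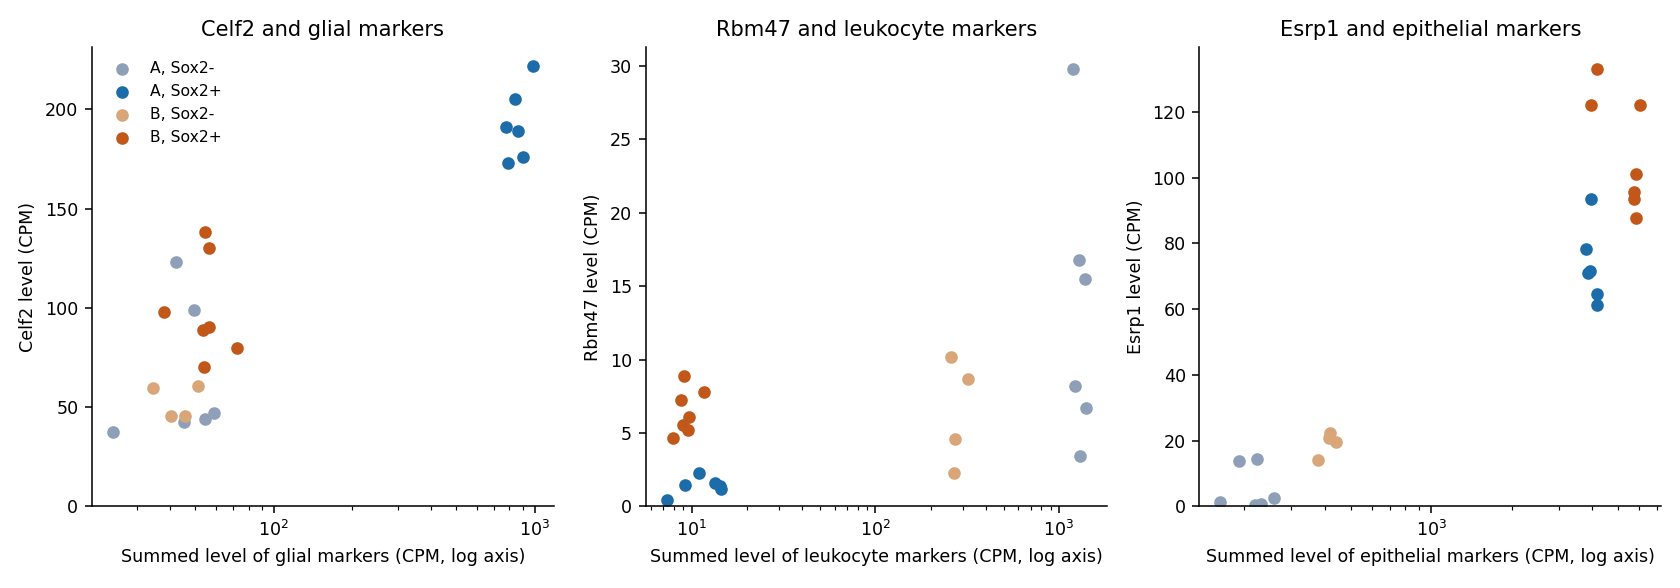
Level of Celf2, Rbm47 and Esrp1 in CPM (linear axis) against the summed CPM (log axis) of glial, leukocyte and epithelial markers in the same library, with 1 point per library and colours for the 4 groups. Batch A Sox2-positive libraries lie at 774 to 982 CPM of glial markers, and the remaining libraries at 24.2 to 72.2 CPM.

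Ptbp1 (ENSMUSG00000006498.16, chr10:79854427-79864771, plus strand), the polypyrimidine tract binding protein that represses exons in most non-neuronal cells, was slightly higher in Sox2-positive cells. Batch A Sox2-negative libraries ran from 165 over 243 to 262 CPM, and Sox2-positive libraries from 223 over 314 to 368 CPM. Among batch B libraries, the Sox2-negative ones held 190.4, 130.2, 245 and 305 CPM, and the Sox2-positive libraries ran from 230.0 over 305 to 326 CPM. The populations overlapped in both batches, with ratios of the means of 1.35 and 1.34. As a log2 fold change the difference was 0.43 over both batches (SE 0.12, edgeR adjusted p 0.0038), 0.44 in batch A (SE 0.14, adjusted p 0.0187) and 0.49 in batch B (SE 0.19, adjusted p 0.0375). The batch B call was lost in 10 of 20 alternative settings (0.22 to 0.72, highest adjusted p 0.127), among them RLE scaling (0.43, adjusted p 0.0614), leaving out libraries 1 and 2 of batch B (0.22, adjusted p 0.104), and leaving out any single one of Sox2-negative replicates 1 and 2 or Sox2-positive replicates 3 to 7 (0.31 to 0.48). Ptbp1 shares exonic bases with Plppr3 (251 bases, up to 144 CPM) and Gm17134 (437 bases, up to 88.4 CPM) on the other strand, so its level is uncertain to that extent.

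Between the batches, few of the regulators differed within a population. In Sox2-positive cells 2 of 8 were called, Rbm47 higher and Celf2 lower in batch B (background 10.4% of 17190 genes, 833 higher and 952 lower, or 666 and 1214 with total-count scaling). In Sox2-negative cells 2 of 8 were called, both higher in batch B (background 11.2%, 1005 higher and 919 lower, or 661 and 1388 with total-count scaling). These were Esrp1 (log2 fold change 1.80, SE 0.49, edgeR adjusted p 0.0166) and Rbfox2 (1.12, SE 0.26, adjusted p 0.00552). The Esrp1 mean was 5.57 ± 6.65 CPM (SD, n = 6) in batch A and 19.1 ± 3.58 CPM (n = 4) in batch B Sox2-negative cells, beside epithelial marker sums of 163 to 259 and 377 to 441 CPM. Erythroid markers moved too, with sums of 983 to 1175 CPM in batch A and 53603 to 62032 CPM in batch B Sox2-negative libraries, and leukocyte sums were lower in batch B (259 to 319.8 against 1197 to 1411 CPM); the part of these cells in the differences was not tested. Its call was lost with counts thinned to the smallest library (1.51, adjusted p 0.0693) and without libraries 1 and 2 of batch B (1.60, adjusted p 0.196). The Rbfox2 call was lost without Sox2-negative replicate 1 of batch B (0.61, adjusted p 0.104) and without libraries 1 and 2 (0.36, adjusted p 0.534). Esrp2 was not called in that comparison (0.98, adjusted p 0.482), but was 3.74 with an adjusted p of 0.00167 without Sox2-negative replicate 5 of batch A, and its interaction was then -3.57 (adjusted p 0.0102) instead of -0.81 (adjusted p 0.727). Without that replicate, the only Esrp2 counts in batch A Sox2-negative cells were 3 in replicate 4, so the sizes of 3.74 and -3.57 are uncertain.

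Levels were set side by side between genes only per kilobase of annotated exons (CPM per kilobase, union of all transcripts). Ptbp1 came first in all 4 groups, from 45.9 ± 15.8 (SD, n = 4) in batch B Sox2-negative to 65.7 ± 11.5 CPM per kilobase (n = 6) in batch A Sox2-positive cells. In Sox2-positive cells Esrp1 came next, at 11.6 ± 1.82 CPM per kilobase in batch A (n = 6) and 17.1 ± 2.78 in batch B (n = 7), and Rbm47 came last at 0.194 ± 0.0822 and 0.905 ± 0.214. In Sox2-negative cells Qk and Rbfox2 followed Ptbp1 (12.8 ± 3.52 and 12.1 ± 2.23 CPM per kilobase in batch A), and Esrp2 came last at 0.256 ± 0.543 in batch A and 0.537 ± 0.123 in batch B. Many neighbours in these orders do not differ beyond their SDs: in batch A Sox2-positive cells the chain from Esrp1 over Qk, Celf2 and Rbfox2 to Esrp2 overlaps link by link, as do Celf2, Rbm47, Esrp1 and Esrp2 in batch A Sox2-negative cells. In batch B Sox2-negative cells Ptbp1 overlaps Rbfox2 (26.2 ± 16.7), Rbfox2 overlaps Qk (12.8 ± 2.32), and Rbm47 overlaps Esrp2. In batch B Sox2-positive cells Qk, Rbfox2, Esrp2, Celf2 and Mbnl1 overlap link by link. With the median transcript length instead, 0.631 kb for Esrp2 and 2.2 kb against 25.9 kb for Celf2, Ptbp1 stayed first in all groups and Rbm47 last in both Sox2-positive groups. The other ranks changed: Esrp1 moved to rank 7 in batch A and rank 6 in batch B Sox2-positive cells (20.6 and 30.3 CPM per kilobase), behind Celf2 (87.6 and 45.1), and in Sox2-negative cells Esrp1 came last in batch A (1.56) and Rbm47 in batch B (2.81).

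The genes whose log2 CPM followed each regulator most closely over the 23 libraries were found by Pearson correlation over 17176 genes. These values are descriptions, since the libraries fall into populations and batches that every pair of genes shares. Esrp1 was closest to Spint1 (r = 0.959) and Kif3c (0.951), and Esrp2 to Smim10l2a (0.964) and Krt18 (0.963), the latter a keratin of simple epithelia. Mbnl1 was closest to Tmem160 (0.961) and Mpc2 (0.953), Rbfox2 to Sel1l (0.902) and Snrnp70 (0.864), and Celf2 to Plxnb3 (0.908) and Crcp (0.898). Ptbp1 was closest to Elac2 (0.895) and Coq9 (0.854). The weakest closest matches were those of Rbm47, with Gm48764 (0.821) and Anxa1 (0.795), and Qk, with Chn1 (0.792) and Herc3 (0.786). No regulator was among the 2 closest genes of another.

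Of 13 family relatives, 10 passed the filter on low counts, and over both batches 1 was higher and 4 were lower in Sox2-positive cells (median log2 fold change -0.56), beside 24.9% and 32.5% of all genes. Ptbp3, a paralog of Ptbp1, went the opposite way to it, with -2.25 (SE 0.22, edgeR adjusted p 2.5e-09) and means of 172 ± 78.8 and 26.0 ± 7.62 CPM in Sox2-negative and Sox2-positive cells of batch A (SD, n = 6 each). Ptbp2, the neuronal paralog, was not called (-0.17, adjusted p 0.358). Celf1 was lower (-0.83, adjusted p 0.000113), Celf5 was lower (-1.97, adjusted p 0.00976) and Celf4 was higher (1.63, adjusted p 0.000101), so the Celf family moved in both directions. Rbfox3, which is also one of the neuronal markers, was lower (-1.41, adjusted p 0.0422) and Rbfox1 was not called (-0.29, adjusted p 0.69). Of the muscleblind paralogs, Mbnl2 (-0.10, adjusted p 0.479) and Mbnl3 (0.37, adjusted p 0.353) were not called. Mbnl2 differed between batches, at -0.47 in batch A and 0.42 in batch B (interaction 0.82, adjusted p 0.00416), and Celf1 did so at -0.35 and -1.29 (interaction -1.0, adjusted p 0.0238). Rbm46, a relative of Rbm47, was not called (-0.87, adjusted p 0.49), and A1cf, Celf3 and Celf6 did not pass the filter.

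**Figure D4:**
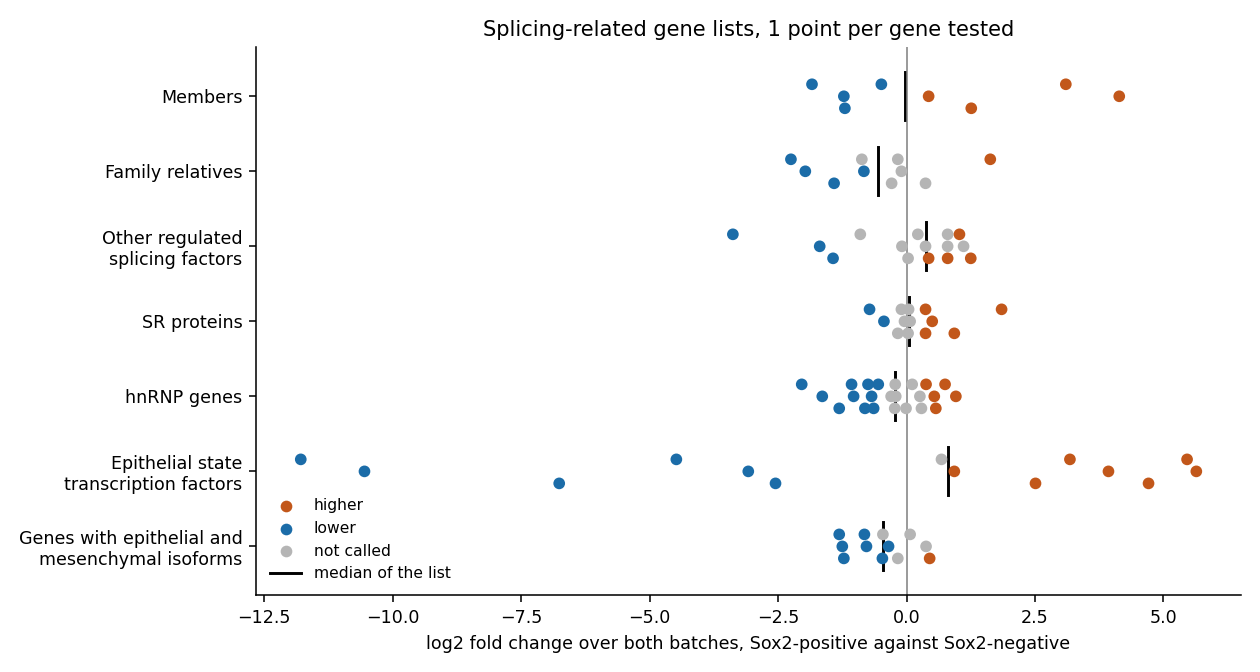
Log2 fold change over both batches (Sox2-positive against Sox2-negative) of the 8 regulators and of 6 lists of related genes, with 1 point per gene that passed the filter, coloured by its call, and a black line at the median of the list. The regulators lie on both sides of 0 with a median of -0.03, and the points below -10 are Twist1 and Twist2, whose fitted values depend on the prior count because Sox2-positive libraries held none of their counts.

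Among 20 other regulated splicing factors, 15 were tested, 4 were higher and 3 lower (median 0.37, beside -0.12 for all genes). The higher ones were Rbm4 (1.25), Elavl1 (1.03), Rbm4b (0.80) and Rbm5 (0.43), and the lower ones were Nova2 (-3.38), Tial1 (-1.69) and Khdrbs3 (-1.43). All 13 genes on the list of SR and SR-like proteins, many but not all of which promote exon use, were tested. Of these, 5 were higher (Srsf12 1.85, Srsf1 0.93, Srsf7 0.50, Srsf6 0.37 and Tra2b 0.37) and 2 lower (Tra2a -0.72 and Srsf2 -0.44), with a median of 0.04. Srsf1 had means of 224 ± 37.4 and 500.2 ± 44.0 CPM in Sox2-negative and Sox2-positive cells of batch A (SD, n = 6 each). Of 23 hnRNP genes, which often oppose SR proteins, 10 were lower and 5 higher (median -0.23), beside 32.5% lower and 24.9% higher among all genes. In batch A alone 11 were lower and 8 higher, beside 24.2% and 19.3% of all genes. In batch B alone 11 were lower and 4 higher, beside 27.6% and 27.1%. Over both batches, Hnrnpa3 (-2.04), Hnrnpl (-1.64) and Hnrnph1 (-1.31) had the lowest values among those named by rule. Hnrnpab (0.96), Hnrnpf (0.75), Hnrnpk (0.57), Hnrnpc (0.54) and Hnrnpr (0.38) were the ones called higher over both batches. Rbm5, Nova2, Srsf12, Srsf6, Tra2b, Srsf2, Hnrnpc and Hnrnpr were named after their values were seen, to complete these counts.

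Of 14 transcription factors that set or repress the epithelial state, 7 were higher and 6 lower in Sox2-positive cells (median 0.81). Among all genes tested, 24.9% were higher and 32.5% lower (median -0.12). In batch A alone only 10 of the 14 passed the filter, with 2 higher and 6 lower (median -1.73), beside 19.3% and 24.2% of all genes. In batch B alone all 14 were tested, with 7 higher and 6 lower (median 0.91), beside 27.1% and 27.6%. The list mixes both kinds of factor, so its median has no single meaning. Grhl2, a grainyhead factor known to maintain Esrp1 expression in epithelia, was higher by 3.18 log2 (SE 0.30, edgeR adjusted p 1.16e-09), with 36.4 ± 12.1 against 4.68 ± 3.64 CPM in batch A (SD, n = 6 each) and 59.4 ± 7.94 against 5.46 ± 2.14 CPM in batch B (n = 7 and 4). Twist2 and Twist1, repressors of the epithelial state, had no count in any Sox2-positive library and were at least 127-fold and 40.4-fold lower in batch A and at least 129-fold and 66.2-fold lower in batch B (against a floor of 3 counts per library). Twist1 is also one of the mesenchymal markers. Snai1 was lower (-6.76), while Snai2, its paralog, was higher (2.51, adjusted p 1.41e-10), with 150.3 ± 8.12 against 27.0 ± 14.4 CPM in batch A. Snai2, best known as a repressor of epithelial genes, was thus higher in the same population as Esrp1 and Esrp2. Klf4, Grhl1 and Grhl3 of this list are named after their values were seen. Klf4 was lower (-2.55, edgeR adjusted p 8.31e-10), Grhl1 was not called (0.68, adjusted p 0.551) and Grhl3 was higher (4.71, adjusted p 2.33e-07).

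The 12 genes known for isoforms that differ between epithelial and mesenchymal cells were all tested as whole genes, since isoforms were not measured here. Over both batches 7 were lower and 1 higher in Sox2-positive cells (median -0.46), beside 32.5% lower and 24.9% higher among all genes tested (median -0.12). Scrib (-1.31), Enah (-1.25) and Ctnnd1 (-0.78), genes of cell polarity, actin assembly and cell adhesion, had the lowest values among those named by rule, and Rac1 (0.45), a regulator of the actin skeleton, was the higher one. Fgfr2, named here after its values were seen as the best known target of Esrp1 and Esrp2, was lower over both batches (-0.82, SE 0.16, edgeR adjusted p 0.000114). Its levels were 170.2 ± 32.4 and 68.0 ± 16.2 CPM in Sox2-negative and Sox2-positive cells of batch A (SD, n = 6 each), and 139 ± 13.3 and 121 ± 19.6 CPM in batch B (n = 4 and 7). The Fgfr2 difference was called in batch A (-1.32, adjusted p 1.86e-05) and not in batch B (-0.12, adjusted p 0.46), and the batches differed (interaction 1.13, SE 0.23, adjusted p 0.00229).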

How the data were processed

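The deposited table holds the authors' estimated counts (expected counts) per gene for 23 libraries, not scaled to a common depth. The submitters' processing notes name FastQC, Trimmomatic, Salmon and the build mm10; versions and a strand setting are not given in the sources used here. Columns left unused numbered 0. Values were rounded, and symbols were taken from GENCODE M21 (54094 identifiers matched, 99.5%), which also gave positions and exon lengths on GRCm38, the assembly that mm10 names.

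Genes were filtered with filterByExpr (minimum count 10) and tested with edgeR 4.0.16 in R 4.3.3: TMM scaling, quasi-likelihood F test, two-sided, Benjamini-Hochberg adjustment over all genes tested, called under 0.05. The fit over both batches had batch as a covariate, each batch was also fitted alone, and a model of the 4 group means gave the interaction and the batch differences. Standard errors are the log2 fold change divided by the square root of F. The fit over both batches was first tested on simulated data without a batch effect, and the other fits were not tested in this way. Correlations used log2 CPM with a prior count of 2.

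The 8 members and the lists were chosen with earlier results of these data known. All 8 members and 13 family relatives are named. From each other list, up to 3 genes per direction are named, those with the most extreme log2 fold change among genes that average 10 CPM or more and are called with 1 sign over both batches and in each batch. Alternatives were RLE and total-count scaling, 2 other filters, thinning to the smallest library, limma-voom (limma 3.58.1), DESeq2 1.42.0, a replicate block, leaving out libraries 1 and 2 of batch B, leaving out each library, and the median transcript length. ATAC-seq was not analysed here.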

Additional observations from a re-analysis of the deposited data

Results flagged for a closer look

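Of 32 sets (8 regulators in 4 groups), 2 held a library whose distance from its nearest neighbour was large for the range of its group, and chance gives about 1 in 20. Esrp2 stood at 5.88 CPM in batch A Sox2-negative replicate 5, where the next library held 0.785 CPM and 4 held no count. Mbnl1 stood at 64.2 CPM in batch B Sox2-positive replicate 1, where the next library held 49.2 CPM and the lowest 43.1 CPM.

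The genes named by rule that passed the filter, with Fgfr2 added, numbered 42, most of them picked for 1 sign in each batch. Of these genes, looked at for a population difference that itself differed between the batches (edgeR interaction, batch B minus batch A), 7 were called, beside 7.04% of all genes tested. Fgfr2 is among the 7 and was named after its values were seen, so this count is not an unselected share. Rbm47 had 3.26 (adjusted p 0.00759), from -3.23 in batch A and 0.10 in batch B. Fgfr2 had 1.13 (adjusted p 0.00229), from -1.32 and -0.12. Mbnl2 had 0.82 (adjusted p 0.00416), from -0.47 and 0.42, so its sign differed between the batches. Celf1 had -1.0 (adjusted p 0.0238), from -0.35 and -1.29, and Hnrnpl had -0.75 (adjusted p 0.0472), from -1.28 and -1.96. Elavl1 had -0.74 (adjusted p 0.0446), from 1.39 and 0.71, and Hnrnpk had -0.47 (adjusted p 0.00759), from 0.80 and 0.39.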

How the results depend on the processing

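Of the log2 fold changes of the 8 regulators under the alternative settings, 1251 kept direction and call, 43 changed sign, 20 lost a call and 14 gained one. Esrp1, Esrp2, Mbnl1, Celf2 and Rbfox2 kept their population calls over both batches and in each batch under every setting run. The sign changes were all of values that were 0.10 or less in size and not called. The Ptbp1 interaction was 0.02 with RLE scaling, the mean filter and DESeq2, 0.03 with total-count scaling and thinning, and 0.23 with limma-voom. Mbnl1 between batches in Sox2-positive cells was -0.08 with total-count scaling, -0.07 with thinning, -0.01 with limma-voom and -0.09 without libraries 1 and 2 of batch B. Qk between batches in Sox2-negative cells was 0.01 without the filter, with thinning and with limma-voom. Without libraries 1 and 2 of batch B, Rbm47 in batch B was -0.16 and Ptbp1 between batches in Sox2-negative cells was 0.26. Leaving out 1 library gave -0.19 to 0.42 for Rbm47 in batch B, -0.20 to 0.19 for the Ptbp1 interaction, -0.06 to 0.06 for Mbnl1 in Sox2-positive cells, and -0.06 to 0.13 for Qk and -0.28 to 0.11 for Ptbp1 in Sox2-negative cells.

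Of the counts of calls, 14 moved by over 1.5 times. Between batches in Sox2-positive cells, limma-voom called 3313 genes and 2 regulators higher (Rbm47 and Esrp1) against 1785 genes and 1 regulator, and 1159 genes were called without libraries 1 and 2 of batch B. For the interaction, limma-voom called 1 regulator lower (Esrp1, -2.38, adjusted p 0.0352). Without libraries 1 and 2 of batch B, 481 genes were called against 1210, with 0 regulators higher (Rbm47 3.04, adjusted p 0.107), and between batches in Sox2-negative cells 754 genes against 1924, with 0 regulators higher. With thinning, 1 regulator was higher in that comparison. Leaving out 1 library gave 1 to 3 regulators higher there, and 0 to 1 regulators lower for the interaction (Esrp2 without batch A Sox2-negative replicate 5, Rbfox2 without batch B Sox2-negative replicate 3). In these the cause was not tested, other than that fewer libraries entered the fits without libraries 1 and 2.

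Same-numbered libraries of the populations did not deviate together: over 10 pairs the correlations of their deviations ran from -0.0212 to 0.0444, and 1 library correlated best with its own number, so the numbers were not taken as pairs. With the replicate block, 557 genes were called for the interaction in either direction and 0 regulators were called higher (Rbm47 3.32, adjusted p 0.0963), Rbm47 over both batches was -1.59 (adjusted p 0.07), and Qk was called in batch A (-0.41, adjusted p 0.0258). With the median transcript length in place of the exon union, 31 of 32 levels per kilobase moved by more than their SD. Depth limits Rbm47 in batch A Sox2-positive libraries (2 to 12 counts) and Esrp1 and Esrp2 in batch A Sox2-negative libraries.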
